A study of Chlamydomonas reinhardtii with 3 samples.

Results

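The 41 genes described here encode nuclear subunits of the photosystems, the electron transport chain and the ATP synthase, and enzymes of the Calvin cycle, in the green alga Chlamydomonas reinhardtii. They were chosen by locus identifier for their function, not by a measured value, and all 41 were found among the 17527 gene entries of the deposited table and carried a level in both genotypes. The groups were cmd1 KO (2 libraries) and WT (1 library), both of strain CC125, grown with acetate in dim light and then moved to Sueoka's high salt medium (HSM) under 300 µE. CMD1 is a TET homolog, and the series asks whether cytosine methylation differs in cells without it. Neither the kind of cmd1 allele nor the number of mutant clones is stated in the labels. Cytosine methylation was read by whole-genome bisulfite sequencing, in which unmethylated cytosine is converted and read as thymine.

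In photosynthesis, photosystem II takes electrons from water, the cytochrome b6f complex and plastocyanin carry them to photosystem I, and ferredoxin and its reductase pass them to NADP. The proton gradient built on the way drives the ATP synthase, and the Calvin cycle uses the ATP and NADPH to fix CO2. In this alga the large photosynthetic complexes combine chloroplast-encoded core proteins with nuclear-encoded subunits, and the genes below are the nuclear ones. Enzymes of the TET family oxidise 5-methylcytosine in animals, whereas CMD1 of this alga attaches a group derived from vitamin C to it.

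Each gene has 1 mean level per genotype in the authors' deposited table, given below in percent, and the cmd1 KO libraries share 1 value. No difference therefore has a replicate check, and no test between the genotypes could be made. The levels of the 41 genes rested on 1091 listed sites in cmd1 KO and 3417 in WT, with a median per gene of 27 (range 9 to 65) in cmd1 KO and 80 (range 26 to 152) in WT. Over all 17326 genes with a level, the medians were 26 sites in cmd1 KO and 82 in WT. Read depth behind a site is unknown. No source used here gives the region or the cytosine contexts assigned to a gene. Across the 41 genes, longer genes in the reference assembly Chlamydomonas_reinhardtii_v5.5 tended to have fewer listed sites, with a Spearman's rho of -0.49 in cmd1 KO and -0.33 in WT, against -0.04 and -0.02 over all genes. STT7, with a length of 8403 bases, had 28 sites in cmd1 KO and 118 in WT, and PSAE, with 953 bases, had 37 in cmd1 KO and 124 in WT.

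The lists of sites differ in length between the genotypes, and may differ in kind. Levels of single sites are not given. In the 41 genes, the mean times the number of sites is a multiple of 0.001 of a fraction. Single-site levels were therefore taken to be multiples of 0.001. A list of different levels then has a least possible mean. The WT mean lay below that limit in 39 of the 41 genes (91.3% of all genes). On that step, these WT lists held the same level more than once. PSAD and PSBO were the exceptions in WT. No cmd1 KO mean lay below its limit, among the 41 genes or among all 17326 genes. The cmd1 KO limits are lower because the lists are shorter, for example 1.8% at PSAE against a mean of 5.31%. A cmd1 KO list with repeated levels could also pass, so whether cmd1 KO levels were repeated is not shown. If the cmd1 KO lists kept each level once, repeated levels would be missing from their means. Where those repeats were low, the means would stand higher than a mean over every site. The part of this in the differences below was not tested at single genes, and cannot be told apart from a difference in methylation with these levels alone. The sum of the listed levels of a gene, its mean times its number of sites, is free of the divisor, though not of which sites are listed, and is given beside the levels where a result turns on it.

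The photosynthesis genes carried little methylation in WT, and each had a higher deposited level in cmd1 KO. Their levels had a median of 6.38% in cmd1 KO (quartiles 5.34% and 7.69%) and 1.06% in WT (quartiles 0.81% and 1.24%). Over all genes the medians were 5.89% in cmd1 KO and 1.05% in WT. The median difference was 5.40 percentage points among the 41 genes (quartiles 4.35 and 5.96) and 4.73 points among all genes (quartiles 3.93 and 5.72). All 41 were higher in cmd1 KO, as were 99.1% of all genes, so this direction is that of the background. Of the 41 genes 22 differed by at least 5 points towards cmd1 KO, against 41.7% of all genes. At least 10 points were reached by 1 of the 41, PSAD (3.5% of all genes), and none was lower by 10 points (0.0923% of all genes).

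**Figure D1:**
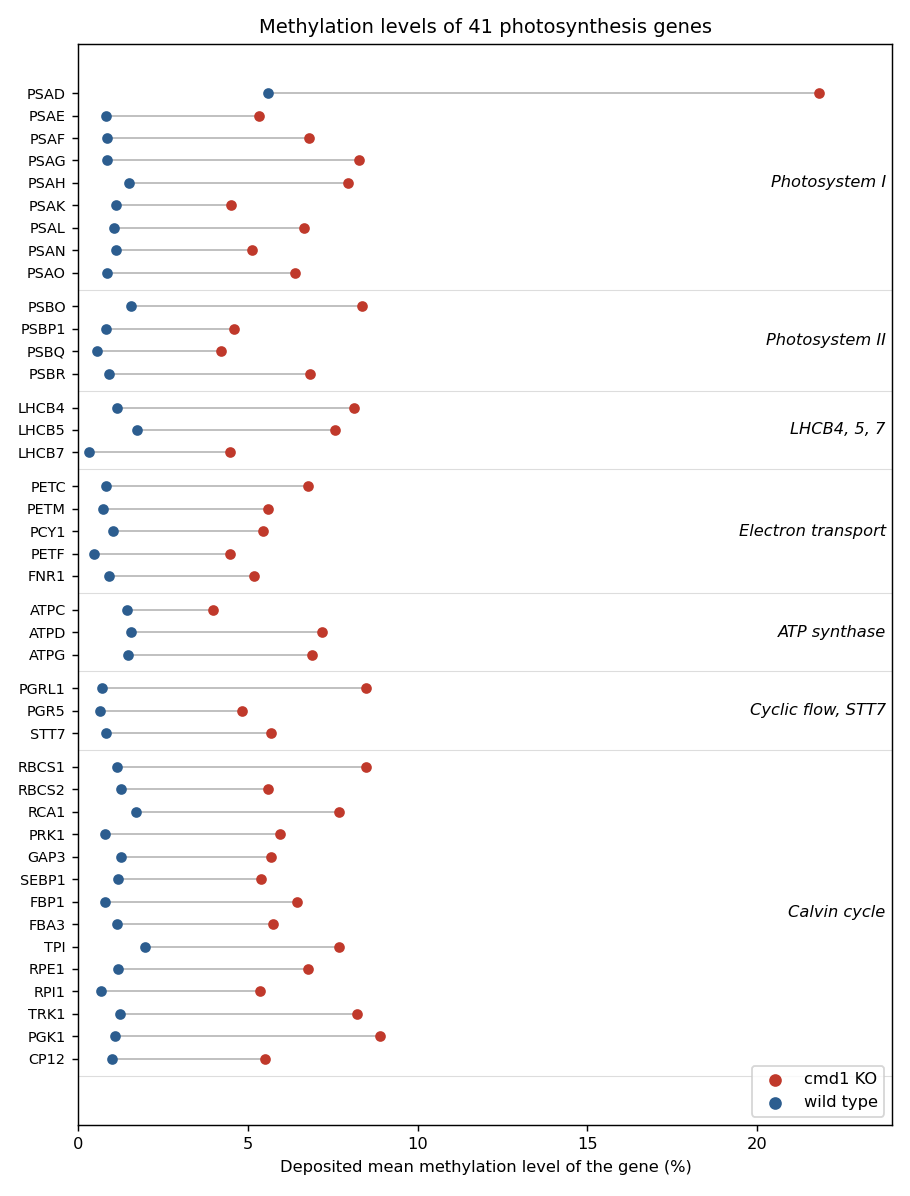
Deposited mean methylation level of each of the 41 genes in percent, 1 row per gene, grouped by role; red points are cmd1 KO, blue points wild type, and a grey line joins the 2 values of a gene. All red points lie to the right of their blue points, and PSAD, at 21.8% in cmd1 KO and 5.60% in WT, stands apart from the other 40 genes, which end at 8.88% and 1.96%.

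The authors' deposited table also gives a p-value per gene, which was adjusted by the Benjamini-Hochberg method over all genes. At a threshold of 0.05, each of the 41 genes was called higher in cmd1 KO, as were 97.6% of all genes. The adjusted p ranged up to 2.77e-05, at PSBO. The test that gave this p is not named in the column headers. With 1 WT library it cannot measure the spread between WT libraries, so it does not speak to the genotypes. Along the WT level the 41 genes were spread like other genes, with 12, 8, 12 and 9 of them in the 4 parts, low to high, into which the quartiles divide all genes. Along the difference the numbers were 4, 13, 9 and 15. Among the 40 genes under 2% in WT, the median difference was 5.28 points, and it was 4.71 points among the 15697 genes of the whole table under 2%.

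Photosystem I held the gene with the largest difference. PSAD (Cre05.g238332) encodes the stromal subunit on which ferredoxin docks. Its level was 21.8% over 65 sites in cmd1 KO and 5.60% over 110 sites in WT, a difference of 16.2 points. Only 153 of all genes differed by more towards cmd1 KO, and the gap to the next of the 41 genes was 8.44 points. The summed levels of PSAD were 14.2 in cmd1 KO and 6.16 in WT, so the cmd1 KO sum was larger from fewer listed sites. PSAD was also the only one of the 41 genes above 2% in WT. Among the 57 genes between 5% and 6% in WT, a class chosen after the PSAD value was seen, the median difference was 6.77 points, against 4.71 points in genes under 2% in WT. Their median level was 11.9% in cmd1 KO and 5.38% in WT. Of these 57 genes 14 were at least 10 points higher in cmd1 KO, and 5 differed by more than PSAD.

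**Figure D2:**
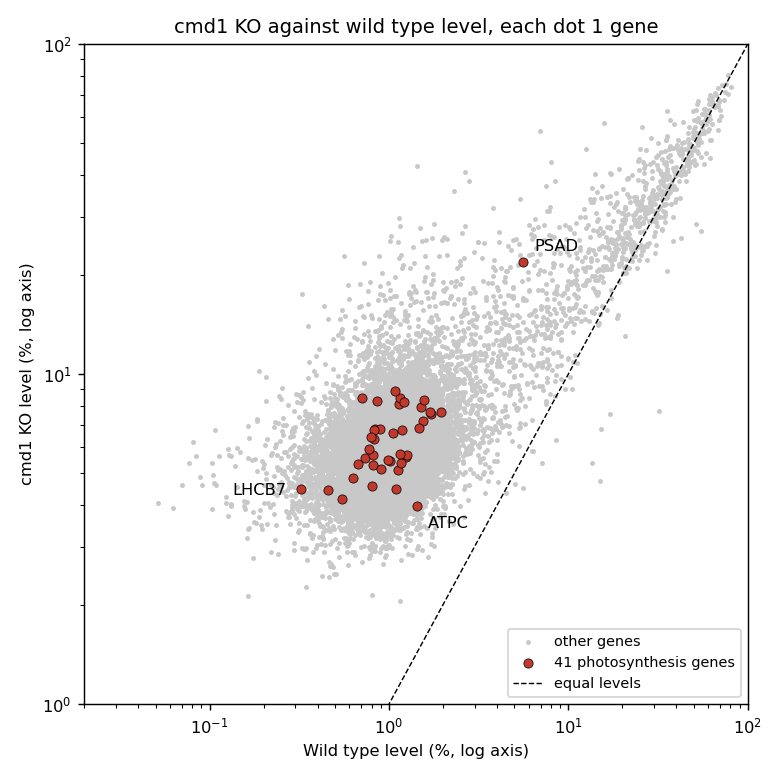
Level in cmd1 KO (vertical) against level in wild type (horizontal), in percent on log axes, for every gene with a wild type level above 0; red dots are the 41 photosynthesis genes, grey dots the others, and the dashed line marks equal levels. Of the red dots 40 lie in the main cloud under 2% in WT, with ATPC at its lower edge, and PSAD lies in the sparser band of genes with more methylation in WT.

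The other 8 photosystem I genes lay within the range of the remaining genes. PSAG, a membrane subunit that binds the light-harvesting antenna, had the next largest difference in this complex, at 8.28% over 33 sites in cmd1 KO and 0.85% over 124 sites in WT. PSAH, which takes part in docking light-harvesting complex II to photosystem I, was at 7.96% in cmd1 KO and 1.50% in WT. PSAK, a peripheral subunit, had the smallest difference, 3.40 points, at 4.49% over 52 sites in cmd1 KO and 1.10% over 104 sites in WT. That difference exceeded only that of 11.8% of genes. The summed levels of PSAK were 2.34 in cmd1 KO and 1.14 in WT. The differences of PSAE, PSAF, PSAL, PSAN and PSAO ranged from 3.99 points at PSAN to 5.96 points at PSAF. Of the 9 photosystem I genes 6 differed by at least 5 points, against 41.7% of all genes.

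Photosystem II was represented by the extrinsic proteins of the water-oxidising complex and the small subunit PSBR. PSBO, the manganese-stabilising protein, had the largest difference of the 4 genes, at 8.35% over 12 sites in cmd1 KO and 1.56% over 26 sites in WT. It had the fewest WT sites of the 41 genes. PSBQ, another extrinsic protein, had the smallest, at 4.19% over 32 sites in cmd1 KO and 0.54% over 62 sites in WT. The order turned round in the summed levels. PSBQ had 1.34 in cmd1 KO and 0.337 in WT, a ratio of 3.98. PSBO had 1.00 in cmd1 KO and 0.406 in WT, a ratio of 2.47. As a ratio of deposited levels, cmd1 KO to WT, the order was also turned round, at 7.72 for PSBQ and 5.35 for PSBO. PSBR was at 6.82% in cmd1 KO and 0.89% in WT. PSBP1 was at 4.58% in cmd1 KO and 0.81% in WT.

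Among the antenna proteins that link the photosystem II core to its main antenna, LHCB4 was at 8.13% over 22 sites in cmd1 KO and 1.14% over 76 sites in WT. LHCB5 was at 7.57% in cmd1 KO and 1.72% in WT. LHCB7, a further gene of the family, had the lowest WT level of the 41 genes, 0.32% over 44 sites, and 4.48% over only 9 sites in cmd1 KO. The level of LHCB7 was thus 13.9 times as high in cmd1 KO as in WT, the largest ratio of the 41, although its difference of 4.16 points was below the median of all genes. The median ratio was 6.28 among the 41 genes and 5.52 among all genes with a WT level above 0.

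The 5 electron transport genes had the lowest median level of the role groups in cmd1 KO, 5.44%, against 0.82% in WT. PETC, the Rieske iron-sulfur protein of the cytochrome b6f complex, had the largest difference of the 5. Its level was 6.78% over 22 sites in cmd1 KO and 0.82% over 87 sites in WT. PETC was the only one of the 5 with a difference past 5 points, against 41.7% of all genes. PETF, the ferredoxin that photosystem I reduces, had the smallest, 4.01 points, at 4.47% over 9 sites in cmd1 KO and 0.46% over 43 sites in WT. PETM, a small subunit of the b6f complex, PCY1, the copper protein plastocyanin, and FNR1, the ferredoxin-NADP reductase, had differences between 4.27 points at FNR1 and 4.85 points at PETM. FNR1 had the most WT sites of the 41 genes, 152, against 29 in cmd1 KO, and its summed levels were close together, at 1.50 in cmd1 KO and 1.38 in WT.

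ATPC was the gene nearest to no difference. It encodes the gamma subunit of the chloroplast ATP synthase, the rotating shaft of the enzyme and the site of its redox regulation. Its level was 3.98% over 15 sites in cmd1 KO and 1.44% over 72 sites in WT. The difference of 2.54 points was larger than that of only 3.02% of all genes. ATPC was also the only one of the 41 genes whose summed levels were lower in cmd1 KO, at 0.597, against 1.04 in WT. The sum was higher in cmd1 KO in the other 40 genes, and in 92.9% of all genes. ATPD, the delta subunit, had the largest difference of the 3 ATP synthase genes, at 7.19% over 21 sites in cmd1 KO and 1.55% over 46 sites in WT. ATPG, a subunit of the peripheral stalk, was at 6.88% in cmd1 KO and 1.47% in WT.

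PGRL1 had the largest ratio of summed levels. PGRL1 and PGR5 take part in cyclic electron flow around photosystem I, and STT7 is the kinase that phosphorylates the photosystem II antenna in state transitions. PGRL1 was at 8.48% over 34 sites in cmd1 KO and 0.71% over 93 sites in WT, 7.78 points apart, and 92.5% of genes differed by less. Its summed levels were 2.88 in cmd1 KO and 0.657 in WT, a ratio of 4.39, against a median ratio of 2.05 among the 41 genes and 1.71 among all genes. PGR5 had the smallest difference of the 3, 4.20 points, at 4.83% over 17 sites in cmd1 KO and 0.63% over 81 sites in WT. STT7 was at 5.69% in cmd1 KO and 0.82% in WT.

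The 14 Calvin cycle genes spanned differences from 4.23 to 7.80 points. Of these genes 8 differed by at least 5 points, against 41.7% of all genes. PGK1, the phosphoglycerate kinase, was highest, at 8.88% over 12 sites in cmd1 KO and 1.08% over 36 sites in WT. SEBP1, the sedoheptulose bisphosphatase, was lowest, at 5.39% over 19 sites in cmd1 KO and 1.17% over 80 sites in WT. The summed levels of SEBP1 were near each other, at 1.03 in cmd1 KO and 0.933 in WT. The ratio of summed levels was 2.74 at PGK1.

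The carbon-fixing enzyme Rubisco has its small subunit encoded by RBCS1 and RBCS2, and RCA1, Rubisco activase, keeps the enzyme active. RBCS1 (Cre02.g120100) was at 8.48% over 14 sites in cmd1 KO and 1.15% over 58 sites in WT. RBCS2 (Cre02.g120150), its neighbour in gene order, was at 5.60% over 22 sites in cmd1 KO and 1.24% over 66 sites in WT. The copies thus stood close together in WT and apart by level in cmd1 KO, while their summed levels in cmd1 KO were 1.19 at RBCS1 and 1.23 at RBCS2. Stretches where these genes are alike can share reads, so their separate values are uncertain. Their lengths differ, at 5239 bases for RBCS1 and 1472 for RBCS2, and which stretch holds the listed sites is unknown. RCA1 was at 7.69% over 14 sites in cmd1 KO and 1.69% over 57 sites in WT, with summed levels of 1.08 in cmd1 KO and 0.964 in WT.

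Of the other Calvin cycle genes, TPI, the triose phosphate isomerase, had the highest WT level of the group, with 7.69% over 38 sites in cmd1 KO and 1.96% over 109 sites in WT. TRK1, the transketolase, was at 8.20% in cmd1 KO and 1.21% in WT. RPI1, the ribose phosphate isomerase, had the lowest level of the group in both genotypes, 5.34% in cmd1 KO and 0.67% in WT. PRK1, the phosphoribulokinase that makes the CO2 acceptor, had a difference of 5.16 points. Its regulators and partners CP12 and GAP3, a linker protein and the glyceraldehyde phosphate dehydrogenase it binds, had differences of 4.51 and 4.41 points. FBP1, a fructose bisphosphatase, FBA3, an aldolase, and RPE1, the ribulose phosphate epimerase, had differences between 4.58 points at FBA3 and 5.66 points at FBP1.

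**Figure D3:**
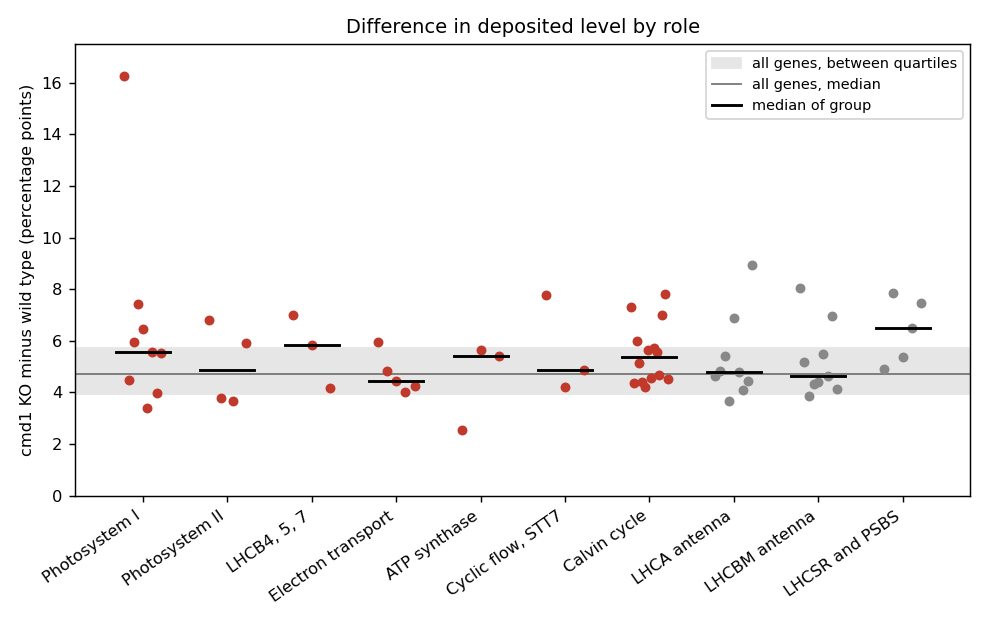
Difference in deposited level, cmd1 KO minus wild type, in percentage points for each gene (dots), by role; red dots are the 41 genes, grey dots the antenna and photoprotection genes set beside them, black bars the group medians, and the grey band the range between the quartiles of all genes around their median line. The group medians of the 41 genes lie between 4.43 points (electron transport) and 5.85 points (LHCB4, 5, 7), and most dots fall in or near the band.

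Between the role groups, the median difference ranged from 4.43 points in the 5 electron transport genes to 5.85 points in LHCB4, LHCB5 and LHCB7. It was 5.58 points in photosystem I, 4.85 in photosystem II, 5.40 in the ATP synthase, 4.87 in PGRL1, PGR5 and STT7, and 5.37 in the Calvin cycle. Apart from PSAD, the genes of every group overlapped with those of every other. The antenna genes of the same photosystems were set beside them by locus identifier. The 9 LHCA genes of the photosystem I antenna had a median of 5.66% in cmd1 KO and 1.11% in WT, from a difference of 3.68 points at LHCA4 to 8.93 points at LHCA9. The 9 LHCBM genes of the main photosystem II antenna had a median of 6.35% in cmd1 KO and 1.41% in WT, with differences from 3.86 points at LHCBM3 to 8.06 points at LHCBM1. In these lists 3 LHCA genes and 4 LHCBM genes differed by at least 5 points, against 41.7% of all genes, and none by 10. LHCBM genes resemble each other closely, so reads shared between them make single values uncertain. The 5 photoprotection genes of the LHCSR and PSBS families had differences from 4.90 points at LHCSR1 to 7.86 points at LHCSR3.1, and 4 of the 5 were past 5 points. Their median was 8.44% in cmd1 KO and 1.15% in WT, and their median difference of 6.50 points lay above that of each role group.

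How far the cmd1 KO levels stood above WT depended on the number of sites by which the summed levels were divided. With the WT number in place of the cmd1 KO number where larger, the median level of the 41 genes was 2.05% in cmd1 KO and 1.06% in WT, and 40 of the 41 were higher in cmd1 KO, against 92.1% of all genes. ATPC was the exception. Over all genes the median level was then 1.81% in cmd1 KO and 1.05% in WT. Of the 41 genes, PSAD alone was at least 5 points higher, against 3.29% of all genes. With 1.52 times the WT number, the median ratio of site numbers in the 150 genes at 40% or more in WT, 35 of the 41 were higher, against 62.9% of all genes. None differed by 5 points, against 1.39% of all genes. The 6 lower genes were FNR1, ATPC, RBCS2, RCA1, SEBP1 and TPI. With 2.02 times the WT number, the 95th percentile of that ratio, 21 of the 41 were higher, against 33.6% of all genes, and none by 5 points, against 0.496%. Among these 21 were 7 of the 9 photosystem I genes, 3 of the 4 photosystem II genes and 4 of the 14 Calvin cycle genes. Sites that the cmd1 KO list lacks count as 0 here, so each such level is the lowest possible at the assumed number of sites.

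**Figure D4:**
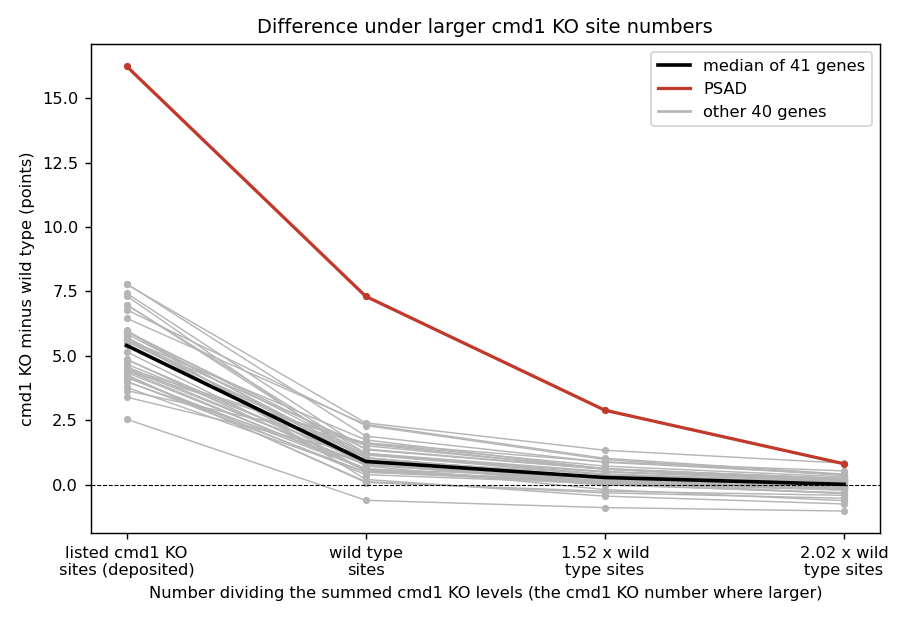
Difference, cmd1 KO minus wild type, in percentage points for each of the 41 genes when the summed cmd1 KO levels are divided by the listed cmd1 KO sites, or by 1, 1.52 or 2.02 times the wild type sites where that is larger; each line is 1 gene, red PSAD, black the median. All lines fall by construction, the median lies at 5.40, 0.90, 0.27 and 0.01 points, and PSAD stays above 0 throughout.

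PSAD was higher in cmd1 KO under each of these numbers, at 12.9%, 8.48% and 6.40% in cmd1 KO, against 5.60% in WT. PGRL1 was likewise higher, at 2.04% with 1.52 times and 1.54% with 2.02 times the WT number in cmd1 KO, against 0.71% in WT. At the largest assumed number, the difference of PGRL1, 0.83 points, was the largest of the 41 and that of PSAD was 0.81 points. ATPC was at 0.83%, 0.55% and 0.41% in cmd1 KO, against 1.44% in WT.

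PSAD lay beside a gene with far more methylation. Cre05.g238343, the next gene in the order of the reference assembly, was at 33.4% over 76 sites in cmd1 KO and 24.3% over 59 sites in WT. The gene after it, Cre05.g238353, was at 7.98% in cmd1 KO and 1.89% in WT. On the other side of PSAD, the nearest gene was at 4.60% in cmd1 KO and 1.77% in WT, and the next 3 were between 4.31% and 5.33% in cmd1 KO and under 1% in WT. The fifth gene on that side, Cre05.g238280, was at 9.23% over only 6 sites in cmd1 KO and 0.72% over 12 sites in WT. Of PSAD and the 5 genes on each side, PSAD and Cre05.g238343 had the highest levels in both genotypes. No source used here says whether the regions that the authors assigned to these neighbours overlap.

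**Figure D5:**
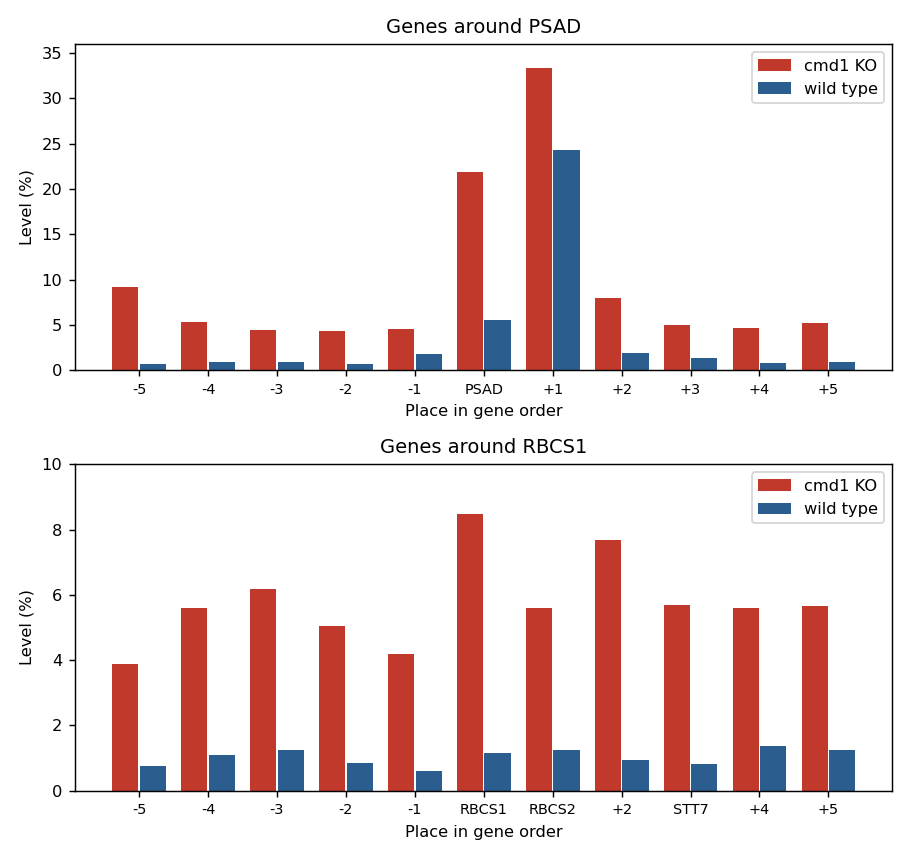
Deposited methylation level in percent (bars, red cmd1 KO and blue wild type) of PSAD and RBCS1 and of the 5 genes on each side in gene order; the vertical scales of the panels differ. Around PSAD the levels peak at the next gene, at 33.4% in cmd1 KO and 24.3% in WT, whereas all genes around RBCS1 lie under 9% in cmd1 KO and under 2% in WT.

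RBCS1, RBCS2 and STT7 lie within 3 places of each other on chromosome 2. The level around them in cmd1 KO ranged from 3.89% to 8.48%, with RBCS1 highest, and the WT level ranged from 0.60% to 1.36%. Over all 41 genes, the nearest genes on each side were 79 genes that are not among the 41. Their median difference was 4.59 points, against 4.73 points among all genes. At least 5 points were reached by 27 of the 79 (34.2%), against 41.7% of all genes. The median levels of the 79 genes were 5.79% in cmd1 KO and 1.02% in WT.

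Across the 41 genes, which share the same libraries, the cmd1 KO and WT levels had a Spearman's rho of 0.50 and a Pearson's r of 0.88, and without PSAD the values were 0.46 and 0.47. The Pearson's r over the 41 genes thus rested on PSAD. Over all genes the levels had a Spearman's rho of 0.43 and a Pearson's r of 0.91. The numbers of sites in the genotypes had a Spearman's rho of 0.79 in the 41 genes and 0.75 over all genes. In 12 of the 41 genes the cmd1 KO level rested on fewer than 20 sites, as in 29.8% of all genes. These were PSBO, LHCB7, PETF, ATPC, PGR5, RBCS1, RCA1, PRK1, SEBP1, FBA3, TRK1 and PGK1. PSAD had 65 cmd1 KO sites.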

How the data were processed

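Genomic DNA of 1 WT and 2 cmd1 KO libraries was bisulfite sequenced. The submitters' processing notes name BSMAP, Trimmomatic 0.36 and FastQC 0.11.5. No source used here states the genome build, annotation or coverage minimum. The deposited table gives, per gene, the number of sites in each genotype, a mean methylation level as a fraction, a difference, a relative change, a fold (ratio) and an unadjusted p-value; the last 4 are the authors' comparison, and their fold was not used. How the cmd1 KO libraries were combined is not given, so each genotype has 1 value, and the planned limma fit could not be run.

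Fractions were multiplied to percent, and 201 entries without a level were left out, leaving 17326 genes. The deposited p was adjusted over all of them by the Benjamini-Hochberg method, a step tested on simulated data. Genes were counted at differences of 5 and 10 points. Of the entries, 17525 matched assembly Chlamydomonas_reinhardtii_v5.5, which named 0 of them. It was used for gene order and length only. Symbols follow the published nomenclature. All 41 genes were accounted for, with full values for the highest and lowest difference in each role group, for genes past 10 points or 2% in WT, and for RBCS1, RBCS2 and RCA1. Other values and the neighbouring genes were chosen after the values were seen. The genes and lists were chosen with earlier results of these data known. Alternatives covered the number of sites, the divisor, centring, the scale and genes left out. Python 3.11.15 with pandas 2.3.3 was used.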

Additional observations from a re-analysis of the deposited data

How the results depend on the processing

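No paired analysis was possible, because no label pairs the 1 WT library with either of the 2 cmd1 KO libraries. No cmd1 KO library could be left out, because they share 1 column. With at least 20 sites in both genotypes, 29 of the 41 genes were left, with medians of 6.46% in cmd1 KO and 0.98% in WT and a median difference of 5.55 points. When the sum of the cmd1 KO levels was divided by the WT site number, 1.52 times it or 2.02 times it, where larger, the cmd1 KO median came to 2.05%, 1.35% and 1.02%, and the median difference to 0.90, 0.27 and 0.0081 points. Over all genes, the cmd1 KO medians were 1.81%, 1.19% and 0.90%, and the median differences 0.74, 0.13 and -0.16 points. Of the 41 genes, 1, 0 and 0 were then at least 5 points higher, against 3.29%, 1.39% and 0.496% of all genes. None of the 41 was at least 10 points higher under these divisors. The shares of all genes at 10 points were not computed there. Missing sites count as 0 there, so these values can only be lower. Centring each column on the median of all genes, a shift of 4.83 points, left 24 genes above and 17 below WT. The median difference was then 0.57 points, and 1 gene, PSAD, was at least 5 points higher. The shares of all genes after centring were not computed. The shift is close to the median difference of all genes, 4.73 points, so a near-even split is built into it. Without RBCS1 and RBCS2 the median difference was 5.40 points, and without PSAD 5.28 points. As a log2 ratio of cmd1 KO to WT it was 2.65, against 2.46 over all genes. None of the 41 genes was lower by 10 points under any divisor, the site minimum or centring. The shares of all genes at that size were not computed for these settings. The divisor of 2.02 and leaving out PSAD were chosen after seeing the data.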
